A study of Danio rerio with 10 samples.

Results

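Cells sorted from adult zebrafish ventricles with 2 blood reporters were compared: CD41 wild-type cells and gata1a control cells. The 5 libraries were chosen by sample title, out of 10 in the series. The CD41 wild-type group has 3 libraries of eGFP-positive cells from hearts of Tg(CD41.eGFP) fish with a wild-type genotype label, taken after amputation of the heart. The sample labels put the amputation 1 day before collection, whereas the text of the series gives 3 days. The gata1a control group has 2 libraries of DsRed-positive cells from hearts of Tg(gata1a:DsRed) fish, collected 7 days after 4-HT, the agent that switches on Cre-ERT2 recombinases. The genotype label of control replicate 2 is Tg(ubi:loxp-eGFP-stop-loxp-Npas4l), a transgene that by its name holds Npas4l behind a floxed stop under the ubi promoter, without a recombinase. Control replicate 1 has the label clofv087b/+, a genotype that goes against its title, so counts are also given without it. No label says that the gata1a hearts were amputated or that the CD41 hearts received 4-HT. All 5 libraries are labelled as platelets of the heart, each from 15 ventricles and 6000 sorted cells, and no strain or age beyond adult is given. Reporter, fish line, amputation, 4-HT, genotype and experiment differ together between these groups, and their effects cannot be told apart. The remaining pair of groups in the series, CD41 clo/+ (3 libraries of eGFP-positive cells with the genotype clofv087b/+, after amputation) and gata1a Npas4l OE (2 libraries of DsRed-positive cells with gata1a:Cre-ERT2 and the same Npas4l transgene, 7 days after 4-HT), shares no library with the first. It differs by the same reporters, amputation, 4-HT and experiment, and also by genotype, and is given beside the first.

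Zebrafish thrombocytes are nucleated cells that do the work of mammalian platelets, and CD41 is the product of itga2b, the integrin chain that binds fibrinogen on them. CD41 reporters mark thrombocytes strongly and blood progenitors weakly. gata1a is a transcription factor of the red cell and thrombocyte lineages, and gata1a reporters are best known for marking red cells. npas4l, the gene of the cloche mutant, is a transcription factor at the head of blood and vessel formation in the embryo.

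Counts assigned to genes were 6764258, 8208331 and 9204517 in the CD41 wild-type libraries and 8708998 and 7960157 in the gata1a controls. Genes took 41.7% to 45.4% of the reads in CD41 wild type and 46.9% and 41.0% in the controls. The share of counts in the 13 protein genes of the mitochondrial genome was 9.60% to 10.95% in CD41 wild type and 10.65% and 11.9% in the controls, and reads outside annotated genes were 6.21% to 7.47% of all reads in CD41 wild type and 6.22% and 9.82% in the controls. On the first principal component of all 10 libraries, which held 43.9% of the variance, the 6 CD41 libraries lay between 44.1 and 61.1 and the 4 gata1a libraries between -77.6 and -73.4. No 2 libraries of a group differed by as little as counting noise. The labels do not say that pools of a group came from separate dates or clutches, so p-values measure the spread between these pools.

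The quasi-likelihood test of edgeR, adjusted by Benjamini-Hochberg, called 2920 of 14245 genes (20.5%) at an adjusted p under 0.05. In CD41 wild type 1557 (10.9%) were higher and 1363 (9.57%) were lower, and the median log2 fold change of all genes tested was -0.0028. The list counts below are to be read beside these shares. Fold changes are CD41 wild type over gata1a control throughout, unless the second pair is named. In the same test against a 2-fold change (log2 of 1), 612 genes passed (4.3%), 405 higher (2.84%) and 207 lower (1.45%). For 7143 genes (50.1%), no CD41 wild-type library lay within the CPM range of the controls or the reverse. Leaving out a library gave 1945 to 2654 called genes. The lowest, 1945, came without CD41 wild-type replicate 1, and 2539 were called without control replicate 1. Levels below are in CPM, counts scaled to the size of the library, and fold changes are log2 with a standard error (SE).

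itga2b, the gene behind the CD41 reporter, was lower in the CD41 sort than in the gata1a sort. itga2b (ENSDARG00000018687) was at 1156, 1015 and 863 CPM in CD41 wild type, against 2761 and 2229 CPM in the gata1a controls. Every CD41 library was lower than both gata1a libraries, and the log2 fold change was -1.30 (SE 0.21, adjusted p = 0.000748 in edgeR). gata1a (ENSDARG00000013477) was at 468, 432 and 356 CPM in CD41 wild type and at 706 and 385 CPM in the controls. The groups overlapped, and its log2 fold change of -0.38 (SE 0.25) did not pass the test, with an adjusted p of 0.326 in edgeR. In the fits that left out a library, the log2 fold change of gata1a ran from -0.75 to 0.13, the latter without control replicate 1. npas4l (ENSDARG00000116511) was at 0.889, 4.01 and 1.61 CPM in CD41 wild type, against 42.1 and 30.3 CPM in the controls. It fell by 4.02 on the log2 scale (SE 0.45, adjusted p = 4.56e-05 in edgeR), in a comparison where a control carries an Npas4l transgene and the other a clo/+ label. In the second pair npas4l was at 1.12, 1.70 and 4.05 CPM in CD41 clo/+, against 57.2 and 27.4 CPM in gata1a Npas4l OE. Its log2 fold change there was -4.32. Whether the npas4l counts come from the endogenous gene or the transgene was not tested.

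Thrombocyte genes were abundant in both sorts. The 26 genes of the list summed to 13860 ± 918 CPM in CD41 wild type (SD, n = 3). In the gata1a controls the sum was 14150 ± 1253 CPM (SD, n = 2). Genes of the list were thus found in both groups, which are labelled as platelets. The cardiomyocyte sum was larger, at a mean of 37930 CPM in CD41 wild type and 74920 CPM in the controls. In CD41 wild type the globin sum was larger too, at a mean of 25250 CPM. The thrombocyte sum adds members that went both ways, so similar sums do not show a similar share of thrombocytes. Of 24 tested members, 6 were higher and 6 lower, with a median of -0.04; without control replicate 1 there were 4 and 6 of 25, with a median of 0.32. The median was also above 0 without CD41 wild-type replicate 1 (0.066) or 3 (0.0076). mpl, the thrombopoietin receptor, was at 381, 376 and 287 CPM in CD41 wild type and 798 and 652 CPM in the controls, so that the groups did not overlap. Its log2 fold change was -1.05 (SE 0.21, adjusted p = 0.00323 in edgeR). vwf, the adhesive protein of thrombocyte granules and endothelium, was at 17.3, 16.9 and 33.95 CPM in CD41 wild type and 81.8 and 86.8 CPM in the controls, a log2 fold change of -1.88 (SE 0.29). TBXAS1, which makes thromboxane, fell by 1.72 on the log2 scale (SE 0.29). gp9, a chain of the receptor for vwf, was at 163, 168 and 139 CPM in CD41 wild type, against 85.6 and 65.0 CPM in the controls, and its log2 fold change was 1.06 (SE 0.22, adjusted p = 0.00417 in edgeR). srgn, the proteoglycan of granules in blood cells, was the most abundant gene of the list. It was at 3510, 3835 and 3411 CPM in CD41 wild type and 2030 and 1483 CPM in the controls. Its log2 fold change was 1.04 (SE 0.22). gp9 and srgn were above all controls in all 3 CD41 libraries. Adhesion and granule genes were thus found on both sides.

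Genes of thrombocyte signalling mostly lay within the test's threshold: of 32 tested, 1 was higher and 3 lower, and the median was 0.07. The lower ones were TBXAS1, p2rx1, an ATP-gated channel, at -1.61 (SE 0.30), and ptgs1, the cyclooxygenase of platelets, at -1.19 (SE 0.24). In CD41 clo/+ over gata1a Npas4l OE, TBXAS1 was at -0.95, p2rx1 at -1.38 and ptgs1 at -2.21, all called. Among regulators of blood progenitors and vessels, 1 of 16 tested was higher and 3 were lower, with a median of -0.25. None was higher without CD41 wild-type replicate 1 or 2 or control replicate 1. GATA2 was at 15.7, 18.7 and 20.65 CPM in CD41 wild type and 40.5 and 37.9 CPM in the controls, a log2 fold change of -1.09 (SE 0.25). FLI1 at -0.64 and RUNX1 at 0.85 each kept their call in 1 of the 5 fits that left out a library. FLI1 had an adjusted p of 0.188, 0.131 and 0.0647 without CD41 wild-type replicate 1, 2 or 3 and 0.265 without control replicate 1. RUNX1 had 0.0998 and 0.163 without CD41 wild-type replicate 1 or 2 and 0.0679 and 0.137 without control replicate 1 or 2, all by edgeR.

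In the coagulation list, 3 of 13 tested genes were higher and 4 lower, with a median of -0.62. Without CD41 wild-type replicate 1 or 2, 2 were lower, and the median was -0.33 without replicate 1 and -0.22 without control replicate 2. TFPI, which inhibits the tissue factor pathway, was at 500, 566 and 356 CPM in CD41 wild type and 227.5 and 166 CPM in the controls, a log2 fold change of 1.27 (SE 0.25). f5, coagulation factor V, was lower at -0.82 (SE 0.20), but its adjusted p was 0.0501 by edgeR without CD41 wild-type replicate 1. PLAT, tissue plasminogen activator, was at 8.89, 8.385 and 8.83 CPM in CD41 wild type and 1.71 and 3.16 CPM in the controls. Its log2 fold change was 1.84 (SE 0.49), and its adjusted p by edgeR was 0.0518 without CD41 wild-type replicate 1 and 0.0939 without control replicate 1.

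Red cell genes were higher in the CD41 sort than in the gata1a sort. All 8 globin genes that passed the filter, of 16 in the list, were higher in CD41 wild type in every fit that left out a library, with a median log2 fold change of 3.58. Members that passed only through high CD41 values had to differ, and 3 of the 16 had no count in the 5 libraries. Globin genes summed to 21910, 24290 and 29550 CPM in CD41 wild type and 3553 and 1848 CPM in the controls. hbaa1, an adult alpha globin, was at 8172, 9157 and 9313 CPM in CD41 wild type, against 1056 and 550 CPM in the controls. Both controls were far below all CD41 libraries, at a log2 fold change of 3.47 (SE 0.30, adjusted p = 4.81e-06 in edgeR). Without control replicate 1 the log2 fold change was 4.02. Globin genes are near-identical copies that can share reads, so their separate values are uncertain.

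Genes of haem synthesis, iron uptake and the red cell membrane were also higher more often than lower: 11 of 26 tested were higher and 1 was lower, with a median of 0.97, and without control replicate 1 there were 14 and 1 of 27. epb41b, protein 4.1 of the membrane skeleton, was at 285, 309 and 225 CPM in CD41 wild type and 25.7 and 16.3 CPM in the controls, with no overlap. Its log2 fold change was 3.70 (SE 0.28, adjusted p = 1.56e-06 in edgeR). alas2, the first enzyme of haem synthesis in red cells, was at 256.5, 294 and 356 CPM in CD41 wild type, against 76.3 and 34.5 CPM in the controls, a log2 fold change of 2.45 (SE 0.31). klf1, the erythroid Kruppel-like factor, was at 43.6, 52.5 and 37.2 CPM in CD41 wild type, against 6.49 and 5.53 CPM in the controls. tfr1a, the transferrin receptor, was higher by 2.55 on the log2 scale (SE 0.28), and SLC4A1 (ENSDARG00000012881), the anion exchanger, by 3.38 (SE 0.31). The exception was RHAG, an Rh-associated membrane channel, at 87.0, 76.6 and 67.3 CPM in CD41 wild type and 178 and 225 CPM in the controls, a log2 fold change of -1.38 (SE 0.21). In bulk libraries like these, fewer cells of a type and less RNA per cell cannot be told apart.

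**Figure D1:**
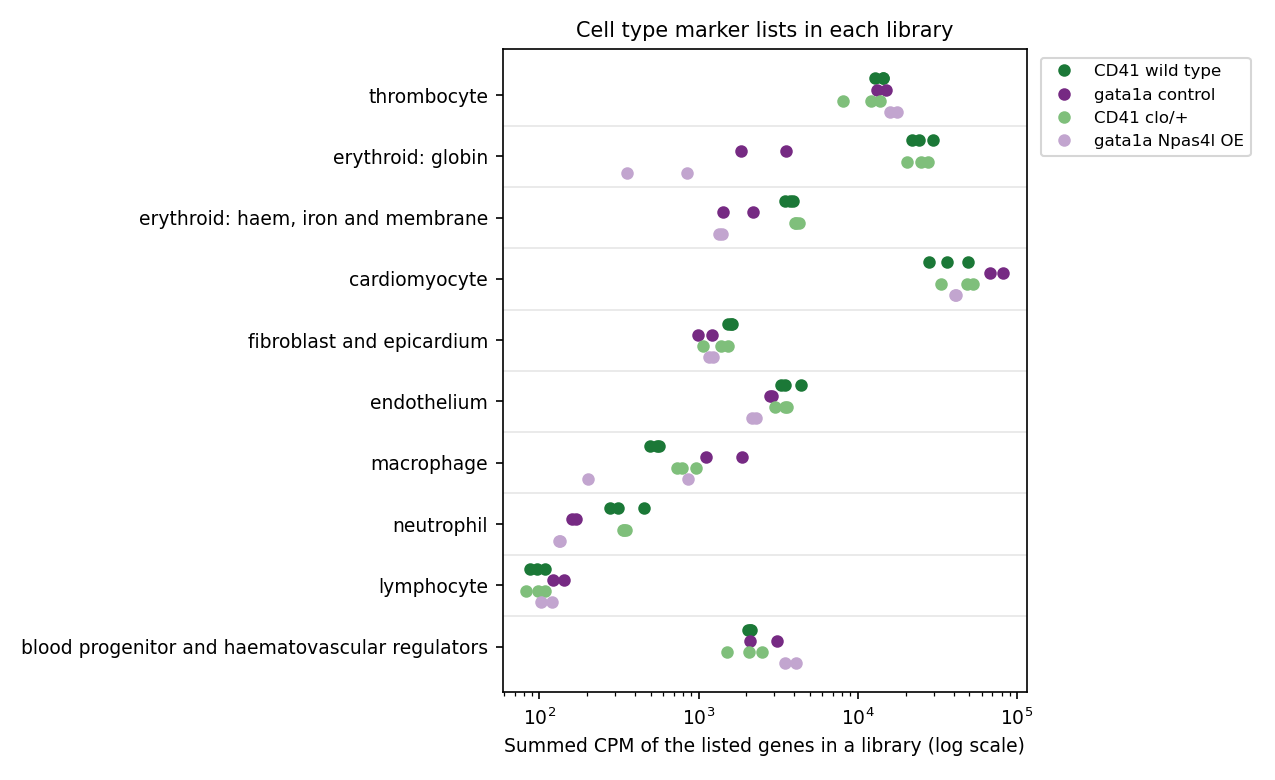
Summed CPM (x axis, log scale) of the genes of each cell type marker list (y axis), with 1 point per library and 1 colour per group. The globin sums separate both CD41 groups, at 20360 CPM or more, from both gata1a groups, at 3553 CPM or less, while the thrombocyte sums of CD41 wild type and gata1a control overlap.

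Several neutrophil genes were higher in CD41 wild type and several macrophage genes were lower. In the neutrophil list 9 of 11 tested genes, of 15 in the list, were higher and none was lower, with a median of 4.56; without control replicate 1, 8 of 13 were higher. Members that passed the filter only through CD41 wild type had to differ. Where each library had to hold 10 counts or more, 3 of 5 were higher, with a median of 1.66. MMP9, a matrix protease of neutrophils and other cells, was at 68.9, 107 and 39.9 CPM in CD41 wild type, against 2.94 and 3.16 CPM in the gata1a controls. All CD41 libraries were higher, by 4.56 on the log2 scale (SE 0.43, adjusted p = 1.21e-05 in edgeR). mmp13a was at 2.82, 17.5 and 4.93 CPM in CD41 wild type and had no count in either control, so it was at least 44.2-fold higher against a floor of 3 counts over the group. LECT2 (ENSDARG00000033227), a neutrophil chemotactic factor, was likewise without a count in the controls and at least 72.4-fold higher. CEBPA, a transcription factor of granulocytes, was higher by 1.68 on the log2 scale (SE 0.29). Another copy of LECT2 (ENSDARG00000090889), the most abundant gene of the list, had a log2 fold change of -0.54 (SE 0.20), which did not pass the test (adjusted p = 0.073 in edgeR). The list summed to 279 to 453 CPM in CD41 wild type and 159 and 171 CPM in the controls.

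In the macrophage list 12 of 21 tested genes were lower and none was higher, with a median of -1.31; without control replicate 1, 13 of 23 were lower and 1 was higher. Without control replicate 2, 8 of 24 were lower and 1 was higher, and the median was -0.81. Members that passed the filter only through the controls had to differ. Where each library had to hold 10 counts or more, 11 of 19 were lower and none was higher, with a median of -1.33. marco, a scavenger receptor, was at 3.85, 10.45 and 8.83 CPM in CD41 wild type, against 67.6 and 126 CPM in the gata1a controls. It fell by 3.63 on the log2 scale (SE 0.36, adjusted p = 1.80e-05 in edgeR), and every CD41 library was below both controls. c1qa, a chain of the first complement component, was at 7.85, 17.1 and 18.1 CPM in CD41 wild type and 105.5 and 171 CPM in the controls, a log2 fold change of -3.25 (SE 0.32). c1qc and ctss2.2, a cathepsin, fell by 2.46 (SE 0.26) and 2.51 (SE 0.29). LGMN, a lysosomal protease and the most abundant gene of the list, was at 194, 171 and 94.2 CPM in CD41 wild type and 213 and 227 CPM in the controls, and its log2 fold change of -0.52 did not pass the test. The list summed to 494 to 561 CPM in CD41 wild type and 1121 and 1862 CPM in the controls. The antigen presentation list described next also had a lower sum in CD41 wild type, at 4690 to 5085 CPM, against 9226 and 8615 CPM. The lysosome sum went the other way, at 6455 to 7243 CPM in CD41 wild type and 5842 and 5645 CPM in the controls. The part of macrophage genes in those lists was not tested.

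Genes of antigen presentation had more lower than higher members. Of 18 tested, 1 was higher and 7 were lower, with a median of -0.54; without control replicate 1 there were 1 and 6. Members that passed the filter only through the controls had to differ. Where each library had to hold 10 counts or more, 1 of 16 was higher and 6 were lower, with a median of -0.47. cd74a, the invariant chain that guides class II molecules, was at 30.2, 43.3 and 34.9 CPM in CD41 wild type. In the gata1a controls cd74a was at 420 and 907 CPM. Its log2 fold change was -4.19 (SE 0.30, adjusted p = 1.15e-06 in edgeR). mhc2dhb, a class II gene outside that list, was at 0.741, 1.34 and 1.835 CPM in CD41 wild type and 52.3 and 102 CPM in the controls, a log2 fold change of -5.83 (SE 0.39). mhc1uba, a class I gene, had no count in CD41 wild type and was at 509 and 152 CPM in the controls, at least 2612-fold lower in CD41 wild type against a floor of 3 counts. It had no count in CD41 clo/+ either, and was at 358.5 and 399.6 CPM in gata1a Npas4l OE. The cause of this all-or-none pattern was not tested. MHC genes are a multigene family in which copies can share reads, so these values are uncertain. cd83, a surface protein of activated antigen-presenting cells and lymphocytes, was the higher member, at 51.7, 94.4 and 80.9 CPM in CD41 wild type, against 2.82 and 3.95 CPM in the controls, a log2 fold change of 4.49 (SE 0.35). In the lysosome list 3 of 32 tested genes were higher and 10 lower, with a median of -0.02. PSAP, the precursor of saposins, was lower by 1.21 on the log2 scale (SE 0.20). CD63, a membrane protein of lysosomes and of dense granules, was higher in CD41 wild type, at 3265, 3517 and 2842 CPM, against 1068 and 780 CPM in the controls, a log2 fold change of 1.80 (SE 0.23).

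Lymphocyte genes were near the limit of detection: 10 of 22 in the list were tested, 4 were lower in CD41 wild type, none of the 3 with 10 counts or more in each library was called, and cd8a, TCF7, cd79b and PAX5 had no count in any of the 5 libraries. nkl.2, an NK-lysin of cytotoxic lymphocytes, was at 0.296, 0.486 and 0.344 CPM in CD41 wild type and 5.63 and 10.1 CPM in the gata1a controls, a log2 fold change of -4.32 (SE 0.68). Without control replicate 1 it was the only called member. lck, cd4-1 and il2rb then had adjusted p of 0.149, 0.145 and 0.0544 by edgeR, and lck had one of 0.101 without control replicate 2. ptprc, which encodes the common leucocyte antigen CD45, was at 76.9, 82.5 and 75.4 CPM in CD41 wild type and 76.4 and 108 CPM in the controls, with overlapping groups.

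Heart muscle transcripts were abundant in both sorts and lower in CD41 wild type. The cardiomyocyte list summed to 36200, 28150 and 49460 CPM in CD41 wild type, against 67790 and 82060 CPM in the gata1a controls. Of 29 tested members, 1 was higher and 17 were lower, 8 of them in every fit that left out a library, and the median was -0.78. The lower genes were 9 without CD41 wild-type replicate 1 or 2, 26 without replicate 3, 17 without control replicate 1 and 11 without control replicate 2. actc1a, a cardiac actin, was at 4846, 2964 and 6404 CPM in CD41 wild type and 16430 and 18470 CPM in the controls, a log2 fold change of -1.88 (SE 0.27, adjusted p = 0.000348 in edgeR). The groups did not overlap. nppa, the atrial natriuretic peptide, was lower at -1.24 (SE 0.23), and ldb3a, a Z-disc protein, at -1.61 (SE 0.24). MYL7, the most abundant gene of the list, was at 9069, 6956 and 12660 CPM in CD41 wild type and 13570 and 14840 CPM in the controls, and its log2 fold change of -0.57 (SE 0.24) did not pass the test (adjusted p = 0.121 in edgeR). RYR2, the calcium release channel, was at -1.64 (SE 0.28), but at -0.92 without control replicate 2, where it was at 387 CPM, against 169 CPM in control replicate 1. nppb, the related peptide and the only higher member, was at 0.96 (SE 0.24) and lost its call without CD41 wild-type replicate 1 (adjusted p = 0.069) or control replicate 1 (adjusted p = 0.0624, both by edgeR). The marker sums of heart muscle moved with the groups, and their part in other results was not tested. With the cardiomyocyte genes left out, 2916 genes were called.

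More endothelial genes were lower than higher. Of 28 tested, 10 were lower and 3 higher, the latter close to the 10.9% over all genes. The median was -0.75. It was -0.815 and -0.51 without control replicate 1 or 2, and -0.516 without CD41 wild-type replicate 2. Without CD41 wild-type replicate 1 or 2, 7 were lower. The summed level was nevertheless higher in CD41 wild type, at 3286 to 4395 CPM, than in the controls, at 2805 and 2879 CPM. CLDN5 (ENSDARG00000014059), a claudin of vascular tight junctions, accounted for much of that sum. It was at 1419, 1958 and 1054 CPM in CD41 wild type, against 291 and 71.9 CPM in the controls, a log2 fold change of 3.03 (SE 0.47, adjusted p = 0.000587 in edgeR). kdrl, a receptor of VEGF, was at 154, 87.0 and 111 CPM in CD41 wild type and 242 and 338 CPM in the controls, a log2 fold change of -1.30 (SE 0.25). tek, the angiopoietin receptor, and clec14a, a surface lectin of vessels, were at -1.15 (SE 0.24) and -1.17 (SE 0.22). plvapb, a component of vessel fenestrae, was at -2.47 (SE 0.41). cdh5 was lower at -0.90, and without control replicate 2 it was at -0.35 with an adjusted p of 0.356 by edgeR.

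In the list of fibroblasts and epicardium, 4 of 23 tested genes were higher and 8 lower, with a median of -0.56. The lower genes were 4, 5 and 7 without CD41 wild-type replicate 1, 2 or 3, and 6 and 4 without control replicate 1 or 2. DCN, the matrix proteoglycan decorin, was at 14.97, 18.35 and 19.4 CPM in CD41 wild type, against 60.85 and 63.2 CPM in the gata1a controls, a log2 fold change of -1.81 (SE 0.23, adjusted p = 0.000153 in edgeR). MMP2, a gelatinase, was lower at -1.87 (SE 0.30). ALDH1A2, the retinoic acid enzyme that epicardium and endocardium of injured zebrafish hearts are known to use, was at 51.9, 61.1 and 57.5 CPM in CD41 wild type and 22.8 and 14.35 CPM in the controls, a log2 fold change of 1.62 (SE 0.27). TAGLN (ENSDARG00000033466), an actin-binding protein of contractile cells, was higher by 1.07 (SE 0.22), and with levels of 1230 to 1353 CPM in CD41 wild type and 718 and 501 CPM in the controls it made up most of the list's sum, which was 1539 to 1616 CPM in CD41 wild type and 986 and 1214 CPM in the controls. The median and the sum of this list again differ in direction.

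**Figure D2:**
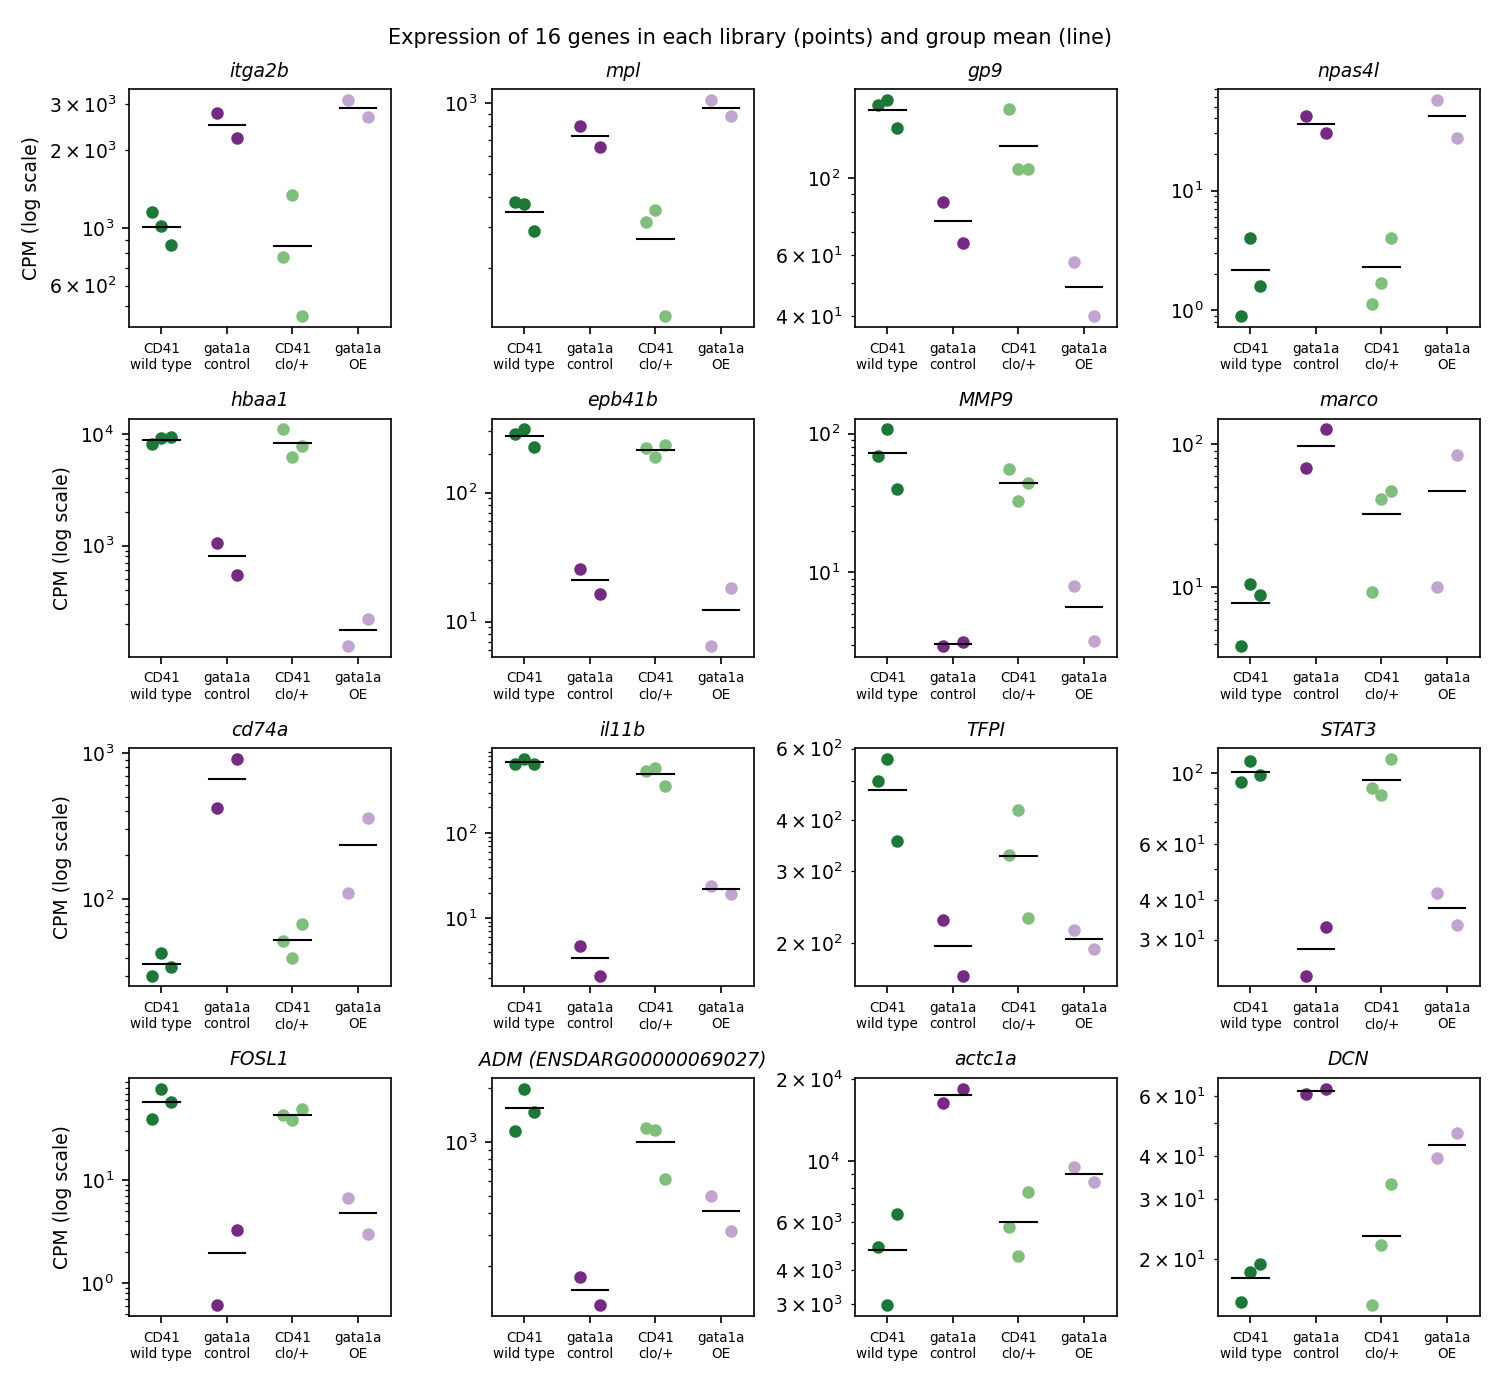
CPM (y axis, log scale, scaled separately in each panel) of 16 genes in all 10 libraries, by group on the x axis, with points for libraries and lines for group means. In the first pair, itga2b, mpl, npas4l, marco, cd74a, actc1a and DCN are lower in every CD41 wild-type library than in both gata1a controls, and the other 9 genes are higher.

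Immediate early genes, whose transcripts appear soon after cells are stimulated, were higher in CD41 wild type. Of 30 tested, 18 were higher and none lower, 11 of them in every fit that left out a library, with a median of 0.99. Without control replicate 1, 14 were higher. FOSL1, a Fos family partner of Jun, was at 39.6, 78.0 and 57.6 CPM in CD41 wild type, against 0.612 and 3.29 CPM in the gata1a controls, a log2 fold change of 4.92 (SE 0.51, adjusted p = 2.69e-05 in edgeR). FOSL2 was at 154, 242 and 182 CPM in CD41 wild type and 9.79 and 22.25 CPM in the controls, a log2 fold change of 3.60 (SE 0.35). DUSP2, a phosphatase that switches off MAP kinases, was higher by 5.40 (SE 0.36). EGR2 was at 11.0, 29.2 and 18.9 CPM in CD41 wild type and had no count in the controls, at least 103-fold higher. Members that passed the filter only through CD41 wild type had to differ. Where each library had to hold 10 counts or more, 16 of 26 immediate early genes were higher and none lower, with a median of 0.92. FOS itself was at 444.5, 509 and 776 CPM in CD41 wild type and 491 and 395 CPM in the controls, with overlapping groups and a log2 fold change of 0.39 (SE 0.25) that did not pass the test. The labels' protocol gives both sorts the same 3 h digestion at 4 °C, and the part of dissociation in these levels was not tested.

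Cytokines and their signalling genes were higher in CD41 wild type: 19 of 30 tested were higher and 1 was lower, with a median of 1.77. Members that passed the filter only through CD41 wild type had to differ. Where each library had to hold 10 counts or more, 15 of 23 were higher and 1 was lower, with a median of 1.555. Without control replicate 1, 16 of 31 were higher and none lower. il11b, an interleukin 11 that signals through il6st and Stat3, was at 658, 742 and 658 CPM in CD41 wild type, against 4.65 and 2.11 CPM in the gata1a controls. The groups lay far apart, with a log2 fold change of 7.66 (SE 0.36, adjusted p = 2.35e-08 in edgeR). Its receptor chain il6st, the kinase JAK1 and the transcription factor STAT3 were picked from the list after their values were seen. il6st was at 164, 176 and 152 CPM in CD41 wild type and 38.8 and 53.2 CPM in the controls, a log2 fold change of 1.84 (SE 0.23). JAK1 was higher by 1.25 (SE 0.23). STAT3 was at 94.1, 109 and 99.0 CPM in CD41 wild type and 23.1 and 32.8 CPM in the controls, a log2 fold change of 1.85 (SE 0.24, adjusted p = 0.000158 in edgeR). The feedback inhibitors SOCS3 (ENSDARG00000025428 and ENSDARG00000026611) and SOCS1 were higher by 1.93 (SE 0.24), 1.96 (SE 0.24) and 3.91 (SE 0.37). ccl34a.4, a chemokine, was at 91.0, 196 and 106 CPM in CD41 wild type and 6.24 and 5.79 CPM in the controls, a log2 fold change of 4.45 (SE 0.37). il1b, an inflammatory cytokine, was at 6.67, 28.8 and 11.4 CPM in CD41 wild type and 1.224 and 2.37 CPM in the controls. lepb, a leptin known for its rise in injured zebrafish hearts and fins, was at 4.89, 2.795 and 5.28 CPM in CD41 wild type and had no count in the controls, at least 22.7-fold higher.

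Of 26 secreted growth factors tested, 7 were higher and 3 lower, the latter close to the 9.57% over all genes. The median was -0.37 (-0.46 without control replicate 1). There were 4 higher and 1 lower without CD41 wild-type replicate 1, and 4 and 2 with a median of -0.075 without control replicate 2. HBEGF, a ligand of EGF receptors, was at 955.5, 1465 and 1071 CPM in CD41 wild type, against 199 and 206 CPM in the gata1a controls, a log2 fold change of 2.53 (SE 0.25, adjusted p = 1.41e-05 in edgeR). The PDGF ligands pdgfba and pdgfbb were higher by 1.79 (SE 0.38) and 1.65 (SE 0.38), and tgfb1b by 1.06 (SE 0.24). CCN1, a matricellular protein, was at 237, 212 and 273 CPM in CD41 wild type and 699 and 472 CPM in the controls, a log2 fold change of -1.28 (SE 0.22). The groups did not overlap for HBEGF, tgfb1b or CCN1.

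In the list of hypoxia response and glycolysis, 16 of 44 tested genes were higher and 8 lower, with a median of 0.29 (18 and 8 of 45 without control replicate 1, and 14 and 5 with a median of 0.12 without control replicate 2). ADM (ENSDARG00000069027), the vasodilator peptide adrenomedullin, was at 1152, 1988 and 1480 CPM in CD41 wild type, against 174 and 121 CPM in the gata1a controls, a log2 fold change of 3.39 (SE 0.29, adjusted p = 4.92e-06 in edgeR). HK2, a hexokinase, was at 34.2, 43.75 and 30.7 CPM in CD41 wild type and 3.06 and 4.74 CPM in the controls, a log2 fold change of 3.22 (SE 0.34). SLC2A1 (ENSDARG00000007412), a glucose transporter, was higher by 1.62 (SE 0.21). The 2 lactate dehydrogenase chains moved apart. LDHA was at 1141, 1096 and 1175 CPM in CD41 wild type and 481.5 and 491 CPM in the controls, a log2 fold change of 1.23 (SE 0.20). LDHB, the chain of heart muscle, was at 547, 414 and 832 CPM in CD41 wild type and 1512 and 1443 CPM in the controls, a log2 fold change of -1.30 (SE 0.26). PDK2 (ENSDARG00000059054), a pyruvate dehydrogenase kinase, and EPAS1 (ENSDARG00000057671), a hypoxia-inducible factor alpha subunit, were among the lower ones at -2.52 (SE 0.32) and -1.57 (SE 0.22). The cardiomyocyte sum given above moved with LDHB, and its part in that difference was not tested.

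In the list of heat shock and protein folding genes, 7 of 27 were higher and 2 lower, with a median of 0.23 (9 and 1 without control replicate 1). With a library left out, 0 to 4 were lower, none without CD41 wild-type replicate 1 and 4 without replicate 3, where the median was 0.07. HSPA5, the chaperone BiP of the endoplasmic reticulum, was at 310, 291 and 413 CPM in CD41 wild type, against 129 and 96.9 CPM in the gata1a controls, a log2 fold change of 1.59 (SE 0.24, adjusted p = 0.000449 in edgeR). HSP90B1, calr3b and PDIA4, which fold secreted proteins, were higher by 1.70 (SE 0.26), 1.83 (SE 0.27) and 1.48 (SE 0.24). Among interferon response genes 6 of 27 were higher and 2 lower, with a median of 0.15 (3 and 3 without CD41 wild-type replicate 2, and 6 and 1 with a median of 0.56 without control replicate 1). The higher ones included the transcription factors irf9, at 83.3, 98.6 and 100.0 CPM in CD41 wild type and 30.2 and 22.25 CPM in the controls, and irf1b, higher by 1.75 (SE 0.25). ifit8 had 2 counts in all CD41 libraries together and was at 11.0 and 7.64 CPM in the controls.

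For cytosolic ribosomal proteins, 7 of 83 were higher and none lower, with a median of 0.35, and for nuclear genes of oxidative phosphorylation 4 of 92 were higher and 4 lower, with a median of -0.08. With a library left out, 3 to 19 ribosomal genes were higher, 3 without CD41 wild-type replicate 1 and 19 without control replicate 2. The oxidative phosphorylation genes then had 1 to 3 higher and 1 to 9 lower. Of the 13 genes of the mitochondrial genome 1 passed, mt-atp8, at 0.84 (SE 0.21). It had an adjusted p of 0.0599 by edgeR without CD41 wild-type replicate 1, and 3 genes passed without control replicate 2. Cell cycle and replication genes had 1 higher and 1 lower of 30, sterol synthesis 3 and 1 of 20, and the actin and microtubule list 7 and 1 of 40. No sterol gene was called without CD41 wild-type replicate 1 or 3 or control replicate 2. In the actin and microtubule list 4 were higher without CD41 wild-type replicate 1 or 2, and 6 were higher and 4 lower without control replicate 2. In the same list scinlb, an actin-severing scinderin, was at 27.6, 36.3 and 39.0 CPM in CD41 wild type and 2.82 and 0.922 CPM in the gata1a controls, a log2 fold change of 4.18 (SE 0.43). In the list of oestrogen and aryl hydrocarbon response, 1 of 16 was higher and 4 were lower (2 without control replicate 2), among them HMOX1, haem oxygenase, at -1.38. The other called members were tiparp, higher at 0.95, and ahr2, UGT1A1 and CYP1A1, lower at -0.81, -1.58 and -2.18. By edgeR, tiparp had an adjusted p of 0.0555 without CD41 wild-type replicate 3. For ahr2 it was 0.0674 and 0.0521 without replicate 1 or 2. UGT1A1 was at -0.76 without control replicate 1. None of the 5 called members was an oestrogen receptor. The oestrogen genes of the list were included because 4-HT is a ligand of oestrogen receptors. The part of 4-HT in any difference was not tested.

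**Figure D3:**
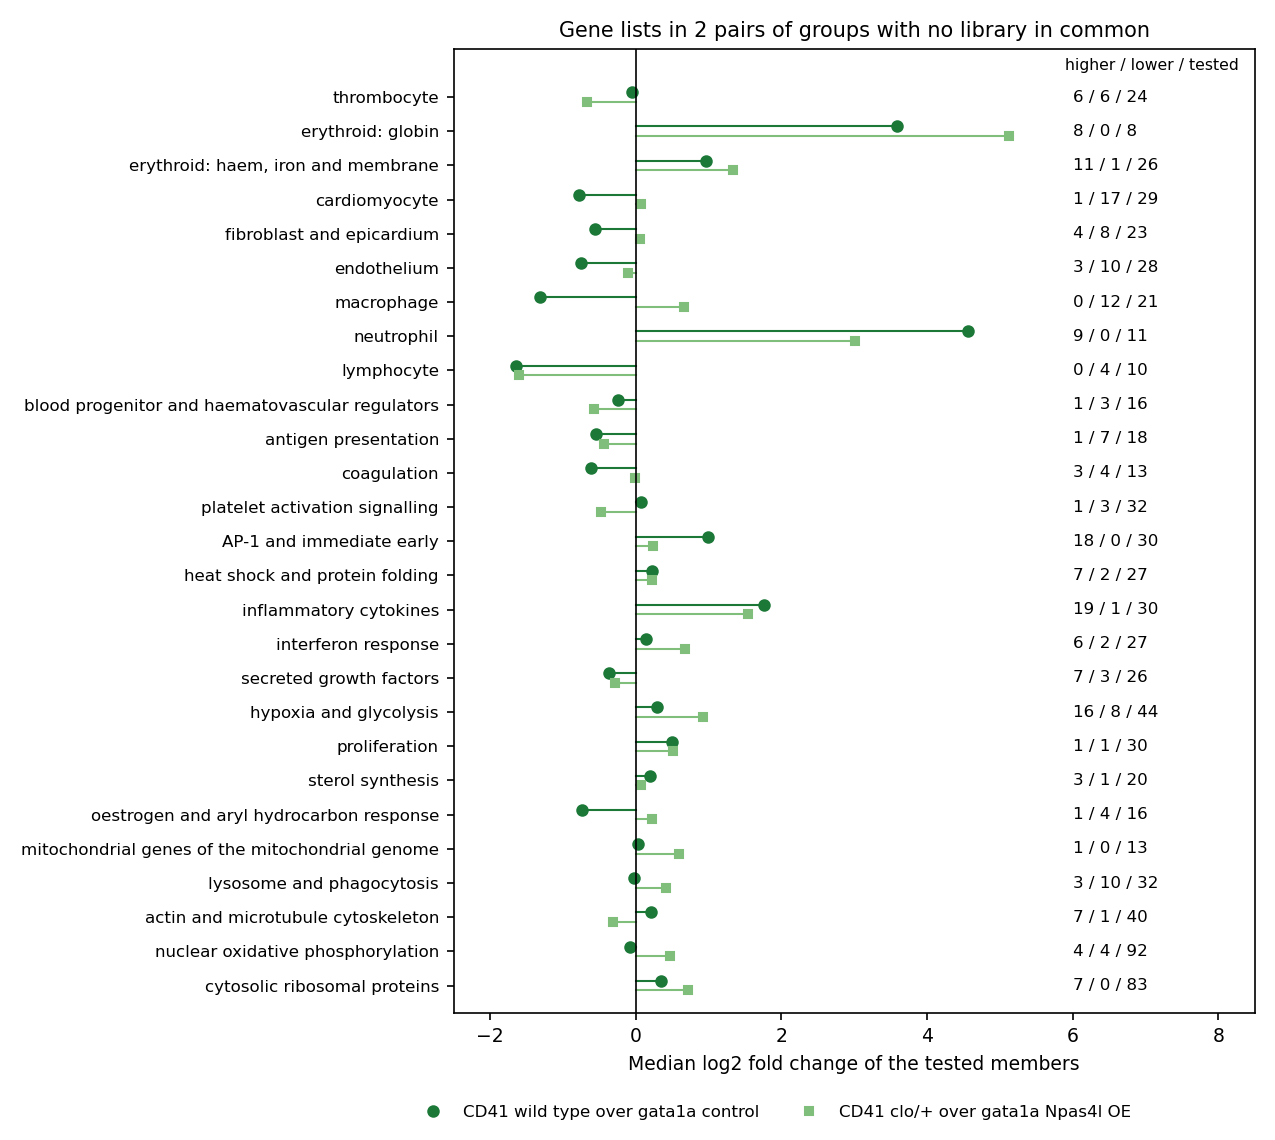
Median log2 fold change (x axis) of the members of each gene list (y axis) that were tested in the first pair, as circles for CD41 wild type over gata1a control and squares for CD41 clo/+ over gata1a Npas4l OE. The numbers at the right count the higher, lower and tested members in the first pair. Globin, neutrophil and cytokine medians lie at 1.5 or more in both pairs, and the macrophage median is -1.31 in the first pair and 0.67 in the second.

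Outside the lists, the genes with the smallest p were chosen by a rule on p, level and lack of overlap. grna.1 was at 236, 334 and 338 CPM in CD41 wild type, against 1.35 and 3.69 CPM in the gata1a controls, a log2 fold change of 6.92 (SE 0.40, adjusted p = 1.74e-07 in edgeR). mibp was at 1338, 1716 and 1370 CPM in CD41 wild type and 141 and 104 CPM in the controls, a log2 fold change of 3.59 (SE 0.25). The antioxidant enzyme prdx1 and the transcription factor CREB5 (ENSDARG00000099002) were higher by 3.72 (SE 0.27) and 5.62 (SE 0.41). On the lower side, P4HA2, a subunit of the collagen prolyl hydroxylase, was at 6.67, 6.32 and 12.96 CPM in CD41 wild type and 542 and 306 CPM in the controls, a log2 fold change of -5.60 (SE 0.34, adjusted p = 3.25e-07 in edgeR). DPYSL3, a protein of the growth cone cytoskeleton, was at 2.96, 2.19 and 1.95 CPM in CD41 wild type and 106 and 92.4 CPM in the controls, a log2 fold change of -5.39 (SE 0.28). ifi27.2, an interferon-inducible gene, was at 37.05, 44.6 and 38.4 CPM in CD41 wild type and 387 and 331 CPM in the controls. TNFSF10, the death ligand TRAIL, fell by 3.60 on the log2 scale (SE 0.33). No library of one group came within the range of the other for these genes, because the rule required it.

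The second pair of groups, CD41 clo/+ over gata1a Npas4l OE, sets the same 2 reporters against each other in other libraries. There, 2914 of 14579 genes were called (20%), 1529 higher (10.5%) and 1385 lower (9.5%). The count was 1609 without CD41 clo/+ replicate 1, and 1251 and 1708 without gata1a Npas4l OE replicate 1 or 2. Among 13832 genes tested in both pairs, 851 were higher in both, which is 54.9% of the first pair's higher genes and 57.6% of the second's. Lower in both were 483 genes, or 36.7% of the first pair's lower genes and 36.0% of the second's, while 6 genes higher in the first were lower in the second and 6 the reverse. Of all genes tested in both, 68.3% had the same sign, against 93.5% of the genes higher in the first pair and 81.4% of the lower ones. The log2 fold changes had a Pearson r of 0.659 and a Spearman rho of 0.542 across genes, which are not independent replicates.

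**Figure D4:**
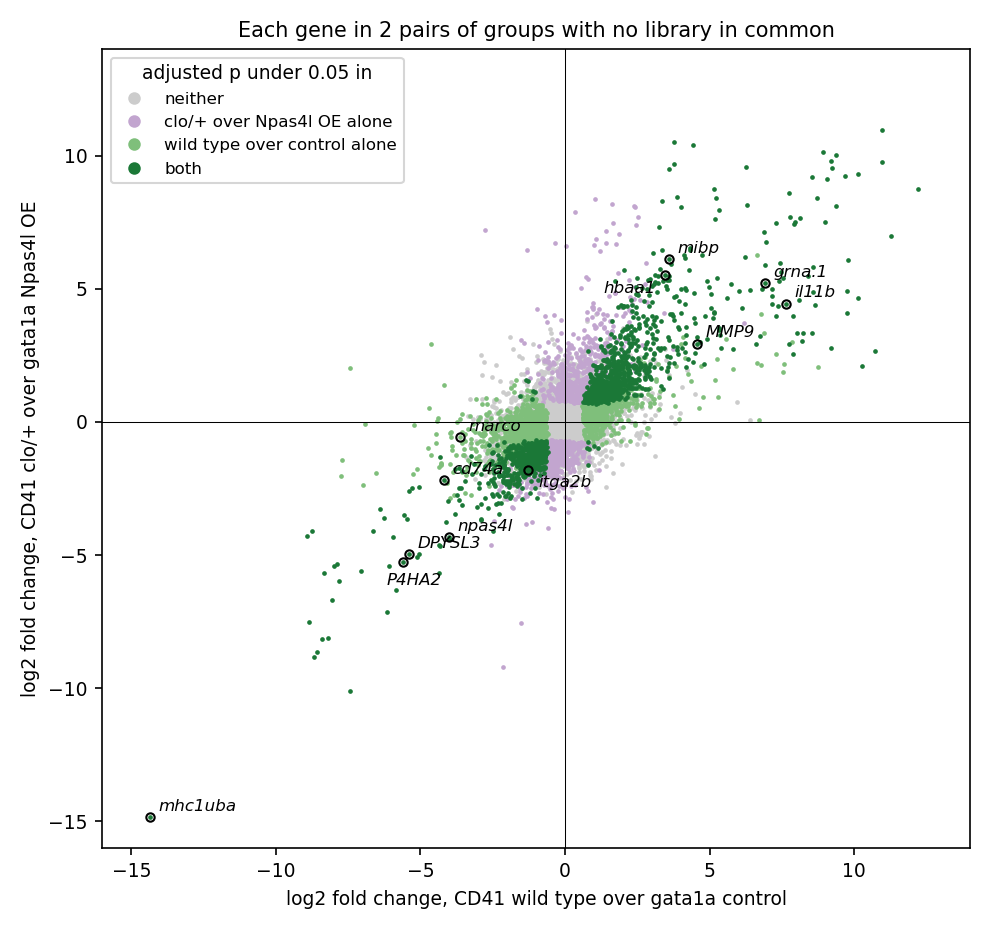
Each point is a gene tested in both pairs: log2 fold change of CD41 wild type over gata1a control (x axis) against CD41 clo/+ over gata1a Npas4l OE (y axis), coloured by the pairs in which the adjusted p was under 0.05. Fitted values of genes without a count in a group, such as mhc1uba, depend on the fit and are no bound. The named genes have the same sign in both pairs.

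Differences between the pairs themselves were tested as an interaction in 1 fit of all 10 libraries, and 119 of 15380 genes passed (0.774%), 33 with a higher value in the first pair (0.215%) and 86 with a lower one (0.559%). That count rested on single libraries: it was 31 and 38 without CD41 wild-type replicate 1 or 2, 49 without control replicate 2, 36, 248 and 41 without CD41 clo/+ replicate 1, 2 or 3, and 20 and 188 without gata1a Npas4l OE replicate 1 or 2. The count was 111 without CD41 wild-type replicate 3. itga2b had a log2 fold change of -1.82 in the second pair, mpl one of -1.91 and npas4l one of -4.32. None of these genes passed the interaction test. STAT3 and il6st were higher in the second pair too, by 1.29 and 1.54. il11b was higher by 4.44 in the second pair, which was less than in the first by 3.15 (adjusted p = 0.0025 by edgeR). In that pair il11b averaged 493 CPM in CD41 clo/+ and 21.8 CPM in gata1a Npas4l OE. The globins went the other way: hbaa1 was higher by 5.53 in the second pair, and the difference between the pairs was -2.11 (adjusted p = 0.0387 in edgeR). Of the 8 globins tested, 4 passed the interaction test, all lower in the first pair, as did 5 of 26 genes of the other red cell list.

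The same lists were counted in the second pair. Of 12 neutrophil genes tested there, 11 were higher in CD41 clo/+ and none lower, and of 30 cytokine and signalling genes 19 were higher and none lower, with medians of 3.68 and 1.43. Neutrophil genes that passed the filter only through CD41 clo/+ again had to differ. Of 46 hypoxia and glycolysis genes 23 were higher and 1 was lower, with a median of 0.92. LDHB, lower in the first pair, was at 0.15 in the second, where it did not pass the test. Of immediate early genes, 10 of 30 were higher and 2 lower there, with a median of 0.24. FOSB, for example, was higher by 2.01 in the first pair and at -0.20 in the second. DUSP2 and FOSL2 were higher in both pairs, by 5.40 and 3.60 in the first and by 2.77 and 1.66 in the second, and both passed the interaction test (adjusted p = 0.0426 and 0.047 by edgeR). For ribosomal proteins 29 of 82 were higher and none lower in the second pair, with a median of 0.72. The thrombocyte list had 3 higher and 11 lower of 25, with a median of -0.65, and none of its members passed the interaction test. Of its 6 higher and 6 lower members in the first pair, 3 and 5 were called in the same direction in the second. There vwf was at -0.09 and srgn at 0.24, and neither was called.

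In the first pair 17 cardiomyocyte, 12 macrophage, 10 lysosome and 10 endothelial genes were lower. Of these, 1 of each list was also called lower in the second. Of the 3 endothelial genes higher in the first pair, 2 were called higher again. Of 29 endothelial genes tested in the second pair, 5 were higher and 1 was lower, with a median of -0.10. None of the endothelial genes passed the interaction test. In the second pair 2 of 29 cardiomyocyte genes were higher and 1 lower, with a median of 0.08, and none passed the interaction test. The cardiomyocyte sum was 45050 ± 10330 CPM in CD41 clo/+ (SD, n = 3) and 41080 ± 142 CPM in gata1a Npas4l OE (SD, n = 2). Of 24 macrophage genes 8 were higher and 1 was lower in the second pair, and 3 passed the interaction test, all lower in the first pair. The macrophage sum there was 734 to 966 CPM in CD41 clo/+, against 202 and 855 CPM in gata1a Npas4l OE, so the 2 Npas4l OE libraries stood apart. MPEG1 (ENSDARG00000055290), a perforin of macrophages, had a log2 fold change of -2.39 in the first pair and 0.88 in the second, a difference of -3.32 (adjusted p = 0.0102 in edgeR). mhc2dab, a class II gene, was at 12.7, 12.5 and 11.13 CPM in CD41 wild type and 31.2 and 27.9 CPM in the gata1a controls. Its log2 fold change was -1.28. In the second pair it was higher by 1.53, and the difference of -2.87 had an adjusted p of 0.0025 by edgeR.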

How the data were processed

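For each library the authors deposited a table of raw counts over 32520 Ensembl gene IDs and 5 summary lines. FastQC 0.11.4, Trim Galore 0.6.0, HISAT2 2.1.0, DESeq2 1.22.1 and the build GRCz11 are named in the submitters' processing notes, without their roles. The counter and the use of strand are not given in the sources used here. cDNA was made from oligo-dT, amplified and tagmented, per the labels' protocols, with no mention of molecular identifiers, so precision from counts covers counting error only. The summary lines, which held 53.1% to 59.0% of all reads in the 5 libraries, entered neither library sizes nor tests. Gene counts were 6764258 to 9204517 per library.

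Libraries were grouped by title. The 5 libraries were fitted with edgeR 4.0.16 in R 4.3.3: filterByExpr (at least 10 counts, total of at least 15), TMM factors and the two-sided quasi-likelihood test, with Benjamini-Hochberg adjusted p under 0.05 as the call. SE was taken as the absolute log2 fold change over the root of the F statistic. CPM use TMM factors over all 10 libraries. The second pair was fitted alike, and the interaction in 1 fit of all 10 libraries. With 3 libraries against 2, the smallest two-sided exact permutation p is 0.2. The replicate numbers are shared by title only and were no block in the main fit.

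Symbols came from a name table, which names many zebrafish genes in human-style capitals. The 27 lists held 698 planned symbols, of which 657 matched, 141 only after a copy letter or number was dropped and 10 through a human-style alias added once the name table was seen. Together they gave 910 genes. The groups compared and the lists were chosen with earlier results of these data known. Genes were named by a rule: npas4l, itga2b and gata1a, the 12 smallest p values in each direction and the 12 largest changes shared with the second pair (mean of at least 10 CPM, no overlap, no clone name), up to 4 called members of each list and direction, and the 3 most abundant genes of each marker list. Other genes named were chosen after their values were seen. Some genes that the rule named are not reported here. The 5-library design was tested on simulated counts for 14245 genes, 200 of them changed: the test recovered 88% of 4-fold changes and 21% of 2-fold ones, and 8.4% of calls were false. Far more genes, 2920, were called in the data, so these rates need not hold there. The changed genes were drawn from those at or above a minimum mean CPM, so recovery of weaker genes was not tested. Alternatives were other scaling factors and filters, DESeq2 1.42.0, limma-voom (limma 3.58.1), a fit of all 10 libraries, a replicate block, gene groups left out, stricter thresholds and each library left out. List counts in those fits and in the second pair were added after seeing the data. Figures were drawn with matplotlib 3.10.9.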

Additional observations from a re-analysis of the deposited data

Results flagged for a closer look

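Each gene here had a CD41 over gata1a fold change that differed between the first pair (CD41 wild type over gata1a control) and the second (CD41 clo/+ over gata1a Npas4l OE), by the interaction test of edgeR with Benjamini-Hochberg adjustment. Values are the log2 fold change of the first pair minus that of the second. Of all 15380 genes tested, 119 passed. That count depended on the settings and on single libraries, and whether each gene kept its interaction call there was not tested. Of those named in the report or in a gene list, 32 are given.

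Red cell genes had smaller fold changes in the first pair: hbaa1 -2.11, hbaa2 -2.18, HBE1_ENSDARG00000069734 -2.31, HBE1_ENSDARG00000097238 -2.12, SLC4A1_ENSDARG00000012881 -1.96, cahz -2.33, alas2 -2.68, hemgn -2.35 and klf1 -2.5. All 9 were called higher in both pairs, so the difference is one of size. The globin sum in gata1a controls was 3553 and 1848 CPM, and in gata1a Npas4l OE 353 and 852 CPM.

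Differences were also negative for myeloid, lysosomal, antigen presentation and other immune genes: MPEG1_ENSDARG00000055290 -3.32, SPI1 -2.11, cxcr3.2 -2.25, mhc2dab -2.87, CTSB -2.30, CTSD -1.92, NPC2_ENSDARG00000096979 -2.47, LIPA -1.73, ifi27.2 -1.62, ifi27.3 -2.85, itgae.1 -3.06 and asgr1c.1 -3.04. CTSB and mhc2dab were called lower in the first pair and higher in the second, as was PDK2_ENSDARG00000020876 below. In the first pair, PDK2_ENSDARG00000020876 had an adjusted p of 0.0591 by edgeR without CD41 wild-type replicate 1. Its log2 fold change there was -1.03, and -0.69 without control replicate 2. Others with a negative difference were mibp -2.57, hif1al2 -2.06, wnk4b -1.86, PDK2_ENSDARG00000020876 -2.19 and CYP1B1 -3.11.

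Differences were positive for stimulus and cytokine genes and 1 cytoskeletal gene: il11b 3.15, DUSP2 2.57, FOSL2 1.88, ADM_ENSDARG00000069027 2.11, EGR2 8.27 and ASAP1_ENSDARG00000039729 2.35. ASAP1 was called higher in the first pair and lower in the second. Its first-pair log2 fold change was 0.81. Without CD41 wild-type replicate 1 or 2 its adjusted p there was 0.0806 and 0.053 by edgeR. The value of EGR2 rests on controls without a count and is no bound.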

How the results depend on the processing

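Between CD41 wild type and gata1a control, 2920 genes were called. The count was 2718 to 3403 under other scaling factors, filters, tools and gene groups left out, 1412 at an adjusted p under 0.01 and 612 against a 2-fold change. Leaving out a library gave 1945 to 2654 genes, and for the second pair, with 2914, 1251 to 2801. The interaction count of 119 depended on the settings: 640 without a filter, 67 with library size only, 500 with DESeq2, and 20 to 248 with a library left out. The replicate block gave 2955, 3162 and 269 genes in these 3 tests. Same-numbered samples of CD41 wild type and gata1a control did not deviate together (correlations of -0.0138 and 0.0118 across genes). The deviations of 2 controls mirror each other, so these values cannot exclude a pairing. The replicate numbers are shared by title only. For each of these changes the cause was not tested, beyond the fewer samples or the stricter threshold itself.

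Of 170 called named genes none changed sign in any alternative. The call was lost by 91 in at least 1 alternative, by 86 against a 2-fold change, and by 12 to 34 with a given library left out. Over the members tested with all 5 libraries, the medians of 6 lists changed sign. Thrombocyte, at -0.04, ran from -0.226 to 0.316 with a library left out, above 0 without CD41 wild-type replicate 1 or 3 or control replicate 1, and was 0.0059 with library size only. Mitochondrial genome, at 0.03, ran from -0.171 to 0.22, below 0 without CD41 wild-type replicate 2 or control replicate 1, and was -0.055 with upper-quartile factors. Lysosome, at -0.02, was 0.052 without CD41 wild-type replicate 3, 0.033 with library size only and 0.076 with the replicate block, and nuclear oxidative phosphorylation, at -0.08, was 0.016 without CD41 wild-type replicate 2. Platelet activation, at 0.07, was -0.0057 with upper-quartile factors and -0.0432 where each library had to hold 10 counts or more; lymphocyte was then 0.204. Over all members tested without a filter, interferon response was -0.028. Genes that were not called changed sign too: gata1a (-0.75 to 0.133) and MEIS1 (-0.349 to 0.0735) without control replicate 1, CREG1 (-0.047 to 0.765) and ptprc (-0.448 to 0.0394) without control replicate 2, and IKZF1 (-0.182 to 0.793) without control replicate 2 or CD41 wild-type replicate 3, and at -0.038 with the replicate block. With 2 controls, 21% of simulated 2-fold changes were recovered. The simulation changed 200 genes, all at or above a minimum mean CPM, against 2920 called in the data, so that rate need not hold here. Differences of that size or smaller can be missed.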
